A study of Mus musculus with 30 samples.

Results

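The bacterial family Planococcaceae was followed in the feces of 30 female C57BL/6 mice (C57BL/6J in the methods) by sequencing of the 16S rRNA gene. Its members were all amplicon sequence variants (ASVs, distinct 16S sequences) that the authors' taxonomy placed in this family and that had at least 1 count in the 30 mice. This gave 731 of 12980 ASVs, or 5.63% of the ASVs, and they held 7.77% of all counts. The members were thus chosen by their taxon label and by a count anywhere in the series, with no regard to group. The family itself was singled out with its group shares already known, so the shares below describe it, and the tests carry that limit.

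The labels give an age of 6 weeks, which in the methods is the age at purchase, so the mice were older when feces were taken at the end of treatment. Each of the 5 groups held 6 mice. The control group ate a normal diet and received saline by gavage, and the model group ate a high-fructose diet and received saline. The salidroside group received 50 mg/kg salidroside, the tyrosol group 23 mg/kg tyrosol and the hydroxytyrosol group 26 mg/kg hydroxytyrosol, each by gavage on the high-fructose diet. By the methods, the doses of tyrosol and hydroxytyrosol were set to match that of salidroside in moles. Tyrosol is the aglycone of salidroside, which is its glucoside, and hydroxytyrosol carries a further phenolic hydroxyl group. Neither cage nor sequencing batch is named in the labels, so p-values measure the spread between mice only, and a cage shared by mice of a group cannot be told apart from the group.

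Planococcaceae are Gram-positive Bacilli, mostly aerobic, found in soil, water, food and feces. Kurthia are aerobic rods that form no spores and are known from animal feces and meat. Sporosarcina form spores, and several of them hydrolyse urea. Lysinibacillus and Solibacillus are spore formers known from soil.

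Depth was adequate for shares well below 1%. Totals per mouse in the filtered table ran from 41862 to 106609 counts (median 88419.5), and a count of 0 allowed a share of up to 0.00281% to 0.00717%. Such limits and the Wilson intervals below cover counting error only, since PCR reads are not independent molecules. A share of 16S counts cannot tell fewer cells from fewer gene copies per cell, and shares within a mouse sum to the whole, so a share also moves when other taxa move.

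The genus labels come from the same taxonomy as the family label, so they describe its content and are no check of it. Sporosarcina held 138 ASVs and 51.9% of the family's counts, ASVs left unclassified within the family held 254 ASVs and 23.2%, and Kurthia held 111 ASVs and 10.7%. Lysinibacillus had only 6 ASVs but 7.31% of the counts, and Solibacillus had 16 ASVs and 2.36%. ASVs labelled unidentified Planococcaceae numbered 60 and held 1.78%. The taxonomy also filed 82 ASVs of Staphylococcus saprophyticus here, with 1.90% of the counts, although this species is usually placed in Staphylococcaceae. A further 57 ASVs were labelled Bacillus and held 0.903%. Planomicrobium (2 ASVs, 74 counts), Viridibacillus (2 ASVs, 13 counts), Paenisporosarcina (2 ASVs, 4 counts) and Chryseomicrobium (1 ASV, 6 counts) made up the rest.

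Outside the tyrosol group, the share of the family varied more between mice of a group than between the group means. It ranged from 0.193% to 44.6% of a mouse's counts. In control mice 1 to 6 the family held 19.5%, 31.1%, 4.82%, 25.2%, 9.93% and 0.312%. In model mice it held 7.31%, 0.213%, 0.318%, 1.04%, 0.307% and 42.0%. Thus, 5 of 6 control mice stood above 4 of the 6 model mice, while model mouse 6 stood above every control mouse. In salidroside mice the values were 0.693%, 0.528%, 0.650%, 28.1%, 1.30% and 0.627%. In tyrosol mice they were 0.502%, 0.851%, 1.19%, 0.323%, 3.07% and 1.06%, and in hydroxytyrosol mice 0.193%, 24.8%, 0.575%, 44.6%, 2.25% and 1.89%. The tyrosol group was the one group in which no mouse exceeded 5%. Group means ± SD (n = 6) were 15.1% ± 12.1 in control, 8.54% ± 16.6 in model, 5.31% ± 11.1 in salidroside, 1.17% ± 0.990 in tyrosol and 12.4% ± 18.4 in hydroxytyrosol mice. Except in the control and tyrosol groups, the SD was larger than the mean. Medians ran from 14.7% in control mice through 2.07% in hydroxytyrosol and 0.954% in tyrosol mice to 0.677% in model and 0.671% in salidroside mice.

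**Figure D1:**
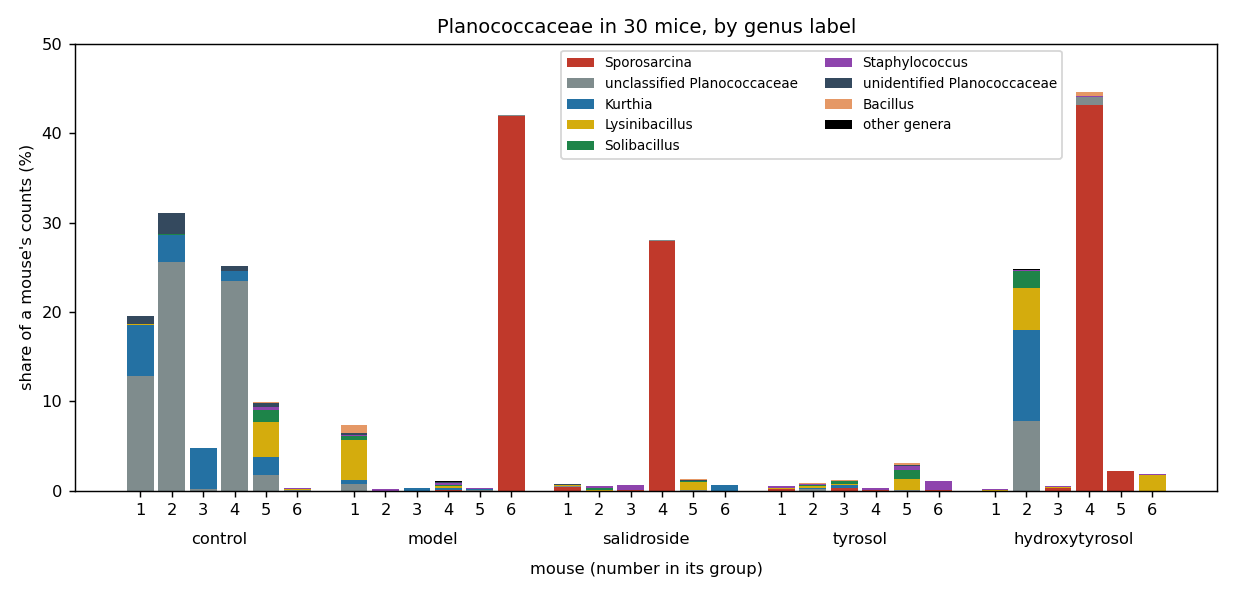
Share of each mouse's counts held by Planococcaceae (bar height, %), split by genus label, for the 6 mice of each group. High bars in the control group are mostly unclassified sequences and Kurthia, while model mouse 6 (42.0%), salidroside mouse 4 (28.1%) and hydroxytyrosol mouse 4 (44.6%) are almost wholly Sporosarcina.

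In 7 mice the family held at least 10% of the counts, which is called a bloom here. These were 3 control mice, 1 model mouse, 1 salidroside mouse and 2 hydroxytyrosol mice, and 0 tyrosol mice. The mouse just under this limit was control mouse 5 at 9.93%, and the lowest bloom was control mouse 1 at 19.5%. With a limit of 5% the number was 9 mice and with 20% it was 6.

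The blooms differed in what they were made of. In control mice 1, 2 and 4, unclassified Planococcaceae held 65.7%, 82.4% and 93.4% of the family's counts. All 3 were led by the same sequence, ASV_45355, with 50.2%, 70.4% and 80.4% of the family's counts. Model mouse 6 (42.0%, Wilson interval 41.7% to 42.3%) was 99.7% Sporosarcina, led by ASV_8872 with 74.0%. Salidroside mouse 4 (28.1%, 27.8% to 28.4%) was also 99.7% Sporosarcina, but ASV_61812 led it with 61.2%. Hydroxytyrosol mouse 4 (44.6%, 44.3% to 45.0%) was 96.7% Sporosarcina, led by ASV_15844 with 76.5%. The 3 Sporosarcina blooms therefore had 3 different leading sequences. Hydroxytyrosol mouse 2 (24.8%, 24.5% to 25.1%) was mixed, with 41.4% Kurthia, and its leading sequence, ASV_19934 of Kurthia gibsonii, held 31.4%.

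Acinetobacter, a genus of Gram-negative aerobes, had a median share of 1.17% in the 7 blooms (0.0571% to 47.3%) and of 44.1% in the other 23 mice (0.0312% to 84.2%). Both ranges were wide, and control mouse 1 and hydroxytyrosol mouse 2 had blooms beside Acinetobacter shares of 47.3% and 44.1%. Since shares sum to the whole, a low share of one is partly set by a high share of the other. With Acinetobacter left out of the totals, the family's share in model minus control mice was -8.18 percentage points (exact permutation p = 0.398), and its direction and call were unchanged in all 7 comparisons. Total counts per mouse had a median of 73213 in blooms and 91736 in the other mice.

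Sporosarcina was listed at 0 counts in all 6 control mice, which allows up to 0.00358% to 0.00717% per mouse. It had counts in 3 model, 3 salidroside, 6 tyrosol and 4 hydroxytyrosol mice. In model mice 4, 5 and 6 it had 34, 4 and 42069 counts. In salidroside mice 1, 3 and 4 it had 284, 70 and 23994 counts, and in hydroxytyrosol mice 1, 3, 4 and 5 it had 4, 333, 36083 and 1857 counts. Most counts thus came from a single mouse in each of these groups. In tyrosol mice 1 to 6 the counts were 140, 4, 328, 36, 8 and 30, so that every tyrosol mouse was positive and none was high. The mean share was 6.99% ± 17.1 in model, 4.74% ± 11.4 in salidroside, 0.0904% ± 0.120 in tyrosol and 7.61% ± 17.4 in hydroxytyrosol mice (SD, n = 6).

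Set against the mean of the control mice's limits for a count of 0 (0.00444%), the mean share of model mice was higher by at least 1575-fold. Without model mouse 6 this bound was 1.74-fold. For salidroside the bound was at least 1067-fold, and 20.6-fold without mouse 4. For tyrosol it was at least 20.4-fold, and 10.6-fold without mouse 3, and for hydroxytyrosol at least 1714-fold, and 114-fold without mouse 4. With counts in only 3 of 12 mice, Sporosarcina missed the filter of the edgeR test between model and control mice, which required at least 10 counts in at least 4 of 12 mice. It was called higher in model mice without that filter (edgeR adjusted p = 2.37e-06 over 338 genera) and with all 30 mice in a single model (adjusted p = 0.0106). Both calls were lost without model mouse 6 (edgeR adjusted p = 0.0710 and 0.118), and both compare model mice with a group at 0.

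Of the 138 Sporosarcina ASVs, 103 were seen in 1 mouse only, and the 10 most counted held 92.5% of the genus's counts. ASV_8872 had 31203 counts in model mouse 6, 4032 in salidroside mouse 4, 389 in hydroxytyrosol mouse 5 and 320 in hydroxytyrosol mouse 4. ASV_15844 had 28542 counts in hydroxytyrosol mouse 4 and 1274 in hydroxytyrosol mouse 5, with 1007 in model mouse 6. ASV_61812 had 14737 counts in salidroside mouse 4 and between 130 and 226 in tyrosol mice 1 and 3 and hydroxytyrosol mouse 3. Each of these sequences thus led 1 bloom and was present at far lower counts in other mice. ASV_23738 (4246 of its 4276 counts) and ASV_90651 (3015 of 3123) were nearly confined to model mouse 6. Nearly all Sporosarcina counts, 51.8% of the family's, were labelled unidentified Sporosarcina, and only 6 counts of the genus had a species name.

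**Figure D2:**
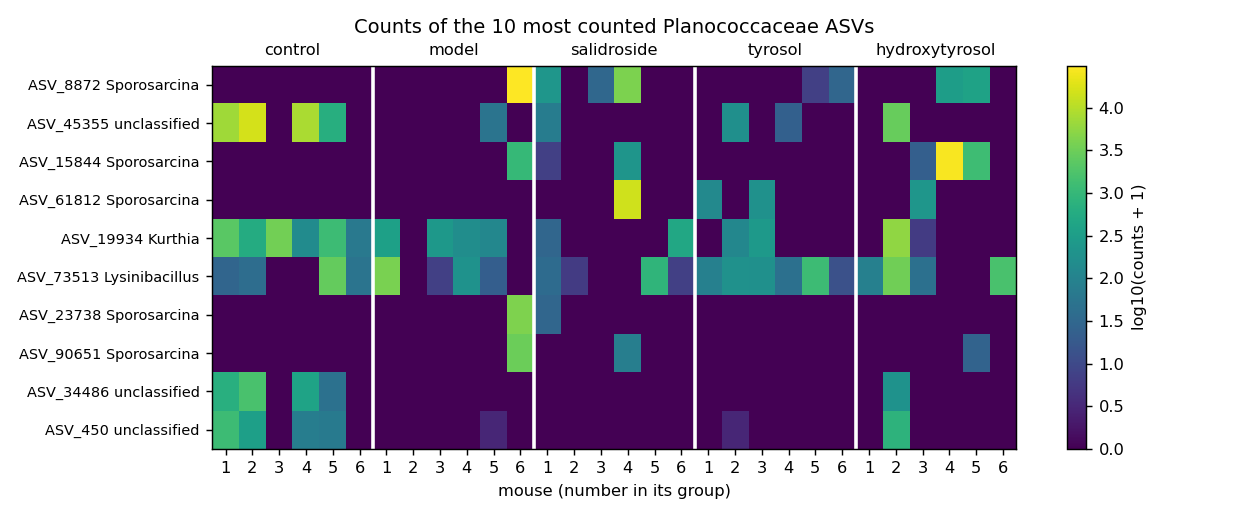
Counts of the 10 most counted Planococcaceae ASVs (rows, with genus label) in each of the 30 mice (columns), as log10(counts + 1). The 5 Sporosarcina rows are empty in all control mice, while ASV_19934 (Kurthia) fills all 6 control mice and ASV_73513 (Lysinibacillus) is present in 22 mice of all groups.

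Kurthia was distributed differently. It had counts in all 6 control mice, with shares of 5.75%, 2.99%, 4.61%, 1.05%, 2.09% and 0.0789%. In model mice the shares were 0.475%, 0%, 0.247%, 0.170%, 0.116% and 0%. Each of the 5 highest control mice was above every model mouse, and control mouse 6 alone overlapped the model group. Kurthia had counts in 3 salidroside mice (up to 0.597%), 2 tyrosol mice (up to 0.242%) and 2 hydroxytyrosol mice, of which mouse 2 reached 10.3% and mouse 3 only 0.00503%. Of the 111 Kurthia ASVs, 93 were seen in 1 mouse only, and a single one, ASV_19934, held 69.0% of the genus's counts and was found in 16 mice. By species label, Kurthia gibsonii held 9.62% of the family's counts, and Kurthia without a species name made up the rest of the genus.

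Unclassified Planococcaceae reached 12.8%, 25.6%, 0.143%, 23.5%, 1.73% and 0.0347% of the counts in control mice 1 to 6. In model mice they held 0.719%, 0.00216%, 0.00197%, 0.0779%, 0.0709% and 0.111%. The groups overlapped, since control mice 3 and 6 lay within the range of the model mice, but the other 4 control mice were above all of these. Salidroside mice held up to 0.121% and tyrosol mice up to 0.196%. In hydroxytyrosol mice the range was 0% to 7.78%, with mouse 2 highest and mouse 4 next at 0.924%. ASV_45355 alone held 75.0% of these counts. It had 7171, 15784, 8469 and 654 counts in control mice 1, 2, 4 and 5, 53 in model mouse 5, 77 in salidroside mouse 1, 171 and 23 in tyrosol mice 2 and 4, and 2854 in hydroxytyrosol mouse 2. The other 21 mice, control mice 3 and 6 among them, had none.

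**Figure D3:**
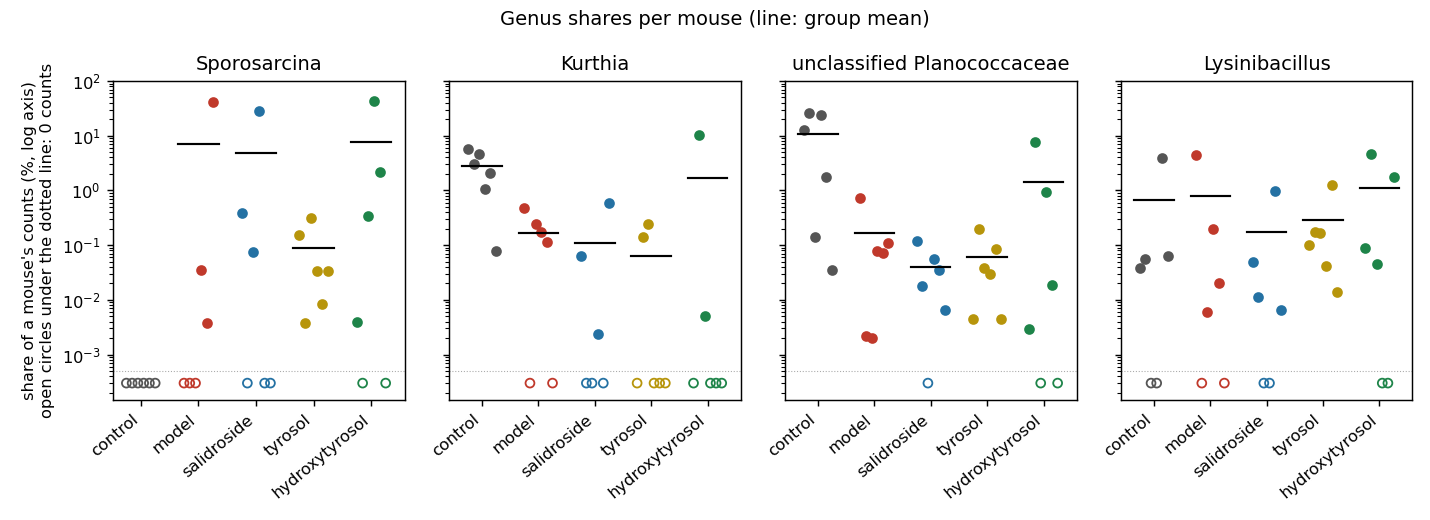
Share of each mouse's counts (%, log axis) held by Sporosarcina, Kurthia, unclassified Planococcaceae and Lysinibacillus in the 5 groups. Each filled circle is a mouse, open circles under the dotted line are mice with 0 counts, and the line is the group mean, which in the model, salidroside and hydroxytyrosol groups lies far from most mice for Sporosarcina.

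Lysinibacillus was spread over all groups, with counts in 22 mice. Nearly all of it was ASV_73513 of Lysinibacillus boronitolerans, a species named for its tolerance of boron. Its highest shares were 4.69% in hydroxytyrosol mouse 2, 4.48% in model mouse 1 and 3.85% in control mouse 5, while 8 mice had none. Group means were 0.668% ± 1.56 in control, 0.783% ± 1.81 in model, 0.175% ± 0.396 in salidroside, 0.290% ± 0.471 in tyrosol and 1.10% ± 1.89 in hydroxytyrosol mice (SD, n = 6). Solibacillus had its highest shares in 3 mice that were also high in Lysinibacillus, at 1.81% in hydroxytyrosol mouse 2, 1.42% in control mouse 5 and 0.927% in tyrosol mouse 5. Bacillus reached 0.861% in model mouse 1 and 0.479% in hydroxytyrosol mouse 4. The Staphylococcus sequences filed in this family were found in 29 mice at up to 0.992% (tyrosol mouse 6), and they led the family in 6 mice in which its share was at most 1.06%, for example model mouse 2 with 94.9% of 197 counts.

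The first comparison, model against control, asks what the diet does. Of the 7 genera tested, unclassified Planococcaceae were lower in model mice, 0.164% ± 0.276 against 10.6% ± 11.8 (SD, n = 6). The edgeR log2 fold change was -6.49 (SE 1.86, 95% interval -10.21 to -2.77, adjusted p = 0.0111 over 97 genera). Thus, 1 of 7 genera was called lower, whereas 10.3% of all 97 genera tested were called lower and 17.5% were called in either direction. The call was kept in each fit that left out a single mouse, and was lost without the filter on low counts (adjusted p = 0.0515) and with a replicate block (adjusted p = 0.0957). By the exact permutation test the difference in share was -10.5 percentage points (p = 0.0281, adjusted p = 0.101).

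Kurthia held 0.168% ± 0.179 in model and 2.76% ± 2.14 in control mice. Its log2 fold change was -4.15 (SE 1.68, 95% interval -7.52 to -0.78), which did not pass in edgeR (adjusted p = 0.0718). It passed with DESeq2 (adjusted p = 0.00940), with centred log-ratios (adjusted p = 0.0206) and without control mouse 6 (adjusted p = 0.0298). The exact permutation test of its share gave a difference of -2.59 percentage points (p = 0.0108, adjusted p = 0.0735), where 35.1% of all genera had an unadjusted p under 0.05. Unidentified Planococcaceae held 0.0648% ± 0.109 against 0.713% ± 0.857, with a log2 fold change of -4.29 (SE 1.75, edgeR adjusted p = 0.0718), and passed with DESeq2 (adjusted p = 0.0186) and without control mouse 6 (adjusted p = 0.0300). Without control mouse 2 their log2 fold change shrank to -2.8 and did not pass. The log2 fold changes of Lysinibacillus (-0.56), Solibacillus (-1.32), Bacillus (1.42) and Staphylococcus (0.18) had intervals on both sides of 0.

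For the whole family the difference was not larger than the spread between mice. The difference in share, model minus control, was -6.61 percentage points (exact permutation p = 0.455, adjusted p = 0.561). Without model mouse 6 the difference was -13.3 points (unadjusted exact p = 0.0390), while the edgeR log2 fold change was -2.62 and still did not pass (adjusted p = 0.177). With all mice the edgeR log2 fold change was 0.62 (95% interval -2.14 to 3.39, adjusted p = 0.765), and its sign depended on the scaling, the tool and the filter. It was -0.83 on library totals alone, -0.35 with DESeq2, -2.52 with centred log-ratios and -0.69 without a filter. The median over all 58 families was 0.60 with the TMM scaling of edgeR, -0.16 on library totals, 0.68 with DESeq2 and 0.27 with centred log-ratios.

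Few single sequences could be tested. Only 18 of the 731 ASVs passed the filter on low counts, and 9 of these were called lower in model mice and 0 higher (edgeR). Over all 411 ASVs tested, 23.1% were called lower, 7.3% higher and 30.4% in either direction. All 9 had their control counts in mice 1, 2, 4 and 5, apart from 1 count of ASV_58490 in control mouse 6. They are therefore not 9 separate results. The 9 passed the filter through the control mice, in which 4 or 5 of 6 had counts, while at most 1 model mouse had any. Lower was therefore the one direction in which they could be called, and their number says nothing of the direction of the family. Among the most counted of them, ASV_45355 had counts in 1 model mouse and 4 control mice (adjusted p = 0.00548). ASV_34486, also unclassified, had 693, 1568, 406 and 46 counts in control mice 1, 2, 4 and 5 and 0 in every model mouse, at least 224-fold lower, or 128-fold without control mouse 2. ASV_450 had counts in 1 model and 4 control mice (adjusted p = 0.00548). By genus label, 4 of the 9 were Kurthia, 4 unclassified and 1 unidentified Planococcaceae. The main Kurthia sequence, ASV_19934, was not among them (log2 fold change -4.52, SE 2.34, edgeR adjusted p = 0.150).

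Each compound was then set against the model group. These 3 comparisons share their model mice, and model mouse 6 weighed on all of them. For tyrosol, the difference in the family's share from model mice was -7.37 percentage points (exact permutation p = 0.433), and -0.67 without model mouse 6. By mean ranks tyrosol mice were 1.0 rank higher than model mice. Its log2 fold change was -3.57 (95% interval -6.23 to -0.91, edgeR adjusted p = 0.0924), and -0.48 without that mouse. For salidroside the difference in share was -3.23 points (exact permutation p = 0.686), 3.47 without that mouse, and the mean rank was again 1.0 higher. The log2 fold change was -0.92 (95% interval -3.43 to 1.59, adjusted p = 0.653), and 1.11 without that mouse. For hydroxytyrosol the difference in share was 3.85 points (exact permutation p = 0.716), and -2.59 without hydroxytyrosol mouse 4. Its log2 fold change was -0.33 (95% interval -3.37 to 2.71, edgeR adjusted p = 0.871), and 2.77 without model mouse 6. This sign turned on library totals (0.54), with DESeq2 (0.53), with centred log-ratios (0.95) and without a filter (1.07), so no direction is given.

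Of the genera of the family, 0 of 8 were called for salidroside (4.12% of all genera), 0 of 8 for tyrosol (1.94%) and 0 of 8 for hydroxytyrosol (4.95%) against the model group by edgeR. At an unadjusted p under 0.05 there were 0, 1 and 0 such genera, beside 12.4%, 21.4% and 17.8% of all genera, and DESeq2 called 0 in each. The 1 was Sporosarcina in tyrosol mice, with a log2 fold change of -6.59 (SE 2.64, adjusted p = 0.177). This value turned to 2.60 without model mouse 6 and to 1.36 with centred log-ratios. Of the family's ASVs, 0 of 6, 0 of 10 and 0 of 7 were called by edgeR and by DESeq2, where edgeR called 4.19%, 8.49% and 32.8% of all ASVs tested. At an unadjusted p under 0.05 there were also 0 in each, beside 8.1%, 13.4% and 40.7% of all ASVs.

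**Figure D4:**
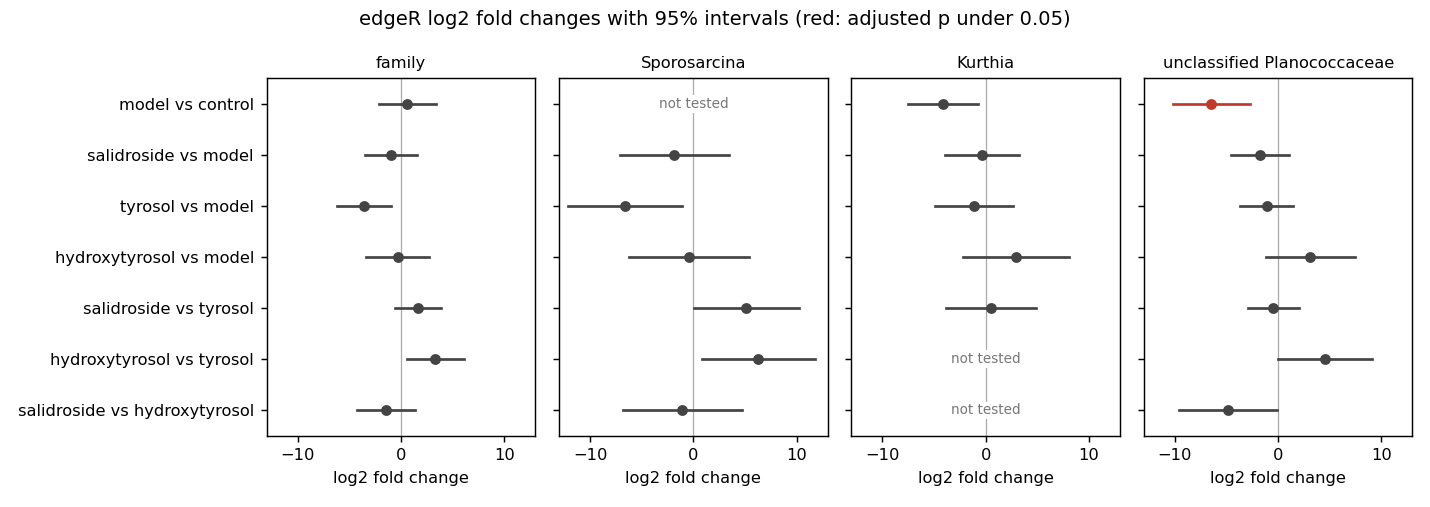
Fitted log2 fold changes (points) with 95% intervals (lines) from edgeR for the family, Sporosarcina, Kurthia and unclassified Planococcaceae in the 7 comparisons, first group over second, with taxa that missed the filter marked as not tested. Unclassified Planococcaceae in model against control mice (-6.49) are the one red entry, and the intervals elsewhere span many doublings.

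The 3 pairs of compounds were compared at doses matched in moles. Hydroxytyrosol exceeded tyrosol, which lacks the further hydroxyl group, by 11.2 percentage points in mean share, with an exact permutation p of 0.203, and by 4.77 points without hydroxytyrosol mouse 4. The log2 fold change was 3.34 (95% interval 0.59 to 6.10, edgeR adjusted p = 0.165 over 55 families), and DESeq2 gave 3.23 with an adjusted p of 0.0244. Without hydroxytyrosol mouse 4 the log2 fold change was 2.11. For salidroside over tyrosol, its aglycone, the log2 fold change was 1.65 (95% interval -0.57 to 3.87, adjusted p = 0.413), and -0.20 without salidroside mouse 4. For salidroside over hydroxytyrosol it was -1.43 (95% interval -4.23 to 1.38, adjusted p = 0.714), and -3.49 without salidroside mouse 4 and -0.58 without hydroxytyrosol mouse 4. None of the 3 pairs passed the adjusted threshold in edgeR, although the interval of hydroxytyrosol over tyrosol lay above 0, and the intervals are too wide to show that the compounds act alike.

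Sporosarcina had log2 fold changes of 6.30 (95% interval 0.81 to 11.79, edgeR adjusted p = 0.205) in hydroxytyrosol over tyrosol, 5.12 (95% interval 0.04 to 10.19, adjusted p = 0.429) in salidroside over tyrosol and -1.05 (95% interval -6.79 to 4.69, adjusted p = 0.843) in salidroside over hydroxytyrosol. The first fell to 1.86 without hydroxytyrosol mouse 4 and the second to 0.38 without salidroside mouse 4, and with a replicate block they turned to -1.20 and -1.73. The last ranged from -6.25 to 3.33 as single mice were left out. By genus, 0 of 7, 0 of 8 and 0 of 5 members were called by edgeR in these pairs, beside 1.04%, 0% and 0% of all genera. At an unadjusted p under 0.05 there were 2, 1 and 1, beside 20.8%, 9.78% and 11.2% of all genera. DESeq2 called 1 in hydroxytyrosol over tyrosol, the Staphylococcus sequences, and 0 in the other pairs.

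Of 8 ASVs tested between hydroxytyrosol and tyrosol, 2 were called lower in hydroxytyrosol mice, beside 27% of all ASVs called and 23.2% called lower. They were ASV_14784, labelled Staphylococcus saprophyticus, with 3, 19, 14, 31, 109 and 5 counts in tyrosol mice, and ASV_66424, labelled Bacillus psychrotolerans, with 0, 39, 63, 18, 59 and 0 counts. They passed the filter through the tyrosol mice alone and could be called in no other direction. Both were at 0 in all 6 hydroxytyrosol mice, which made them at least 8.80-fold and 8.42-fold lower (edgeR adjusted p = 0.0105 and 0.0119). Without tyrosol mouse 5 these bounds were 4.02-fold and 6.56-fold. In salidroside over tyrosol 0 of 10 ASVs were called, beside 0% of all ASVs, and in salidroside over hydroxytyrosol 0 of 8, beside 10.7%. At an unadjusted p under 0.05 there was 1 in each pair, beside 7.11% and 16% of all ASVs. DESeq2 also called 0 in both.

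The number of ASVs of the family was counted in the table that the authors rarefied to 39768 counts per mouse. It was 55, 73, 20, 37, 111 and 16 in control mice and 61, 7, 10, 34, 13 and 47 in model mice. Means ± SD (n = 6) were 52.0 ± 36.0 in control, 28.7 ± 22.2 in model, 25.5 ± 22.8 in salidroside, 27.0 ± 10.9 in tyrosol and 44.3 ± 50.5 in hydroxytyrosol mice. In hydroxytyrosol mice 2 and 4 it was 102 and 116, and in the other 4 between 6 and 19. Model and control mice differed by -23.3 ASVs (exact permutation p = 0.212), where 17.2% of all families had a p under 0.05. The difference was -11.5 without control mouse 5 and -43.8 in the unfiltered table, and in the other 6 comparisons the exact p lay between 0.426 and 0.909. A high share did not always go with many ASVs, since control mouse 5 had 111 at a share of 9.93% and model mouse 6 had 47 at 42.0%.

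**Figure D5:**
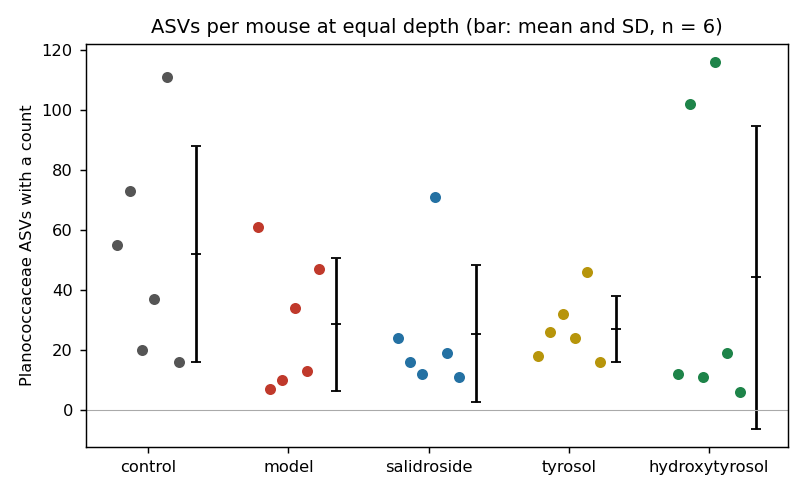
Number of Planococcaceae ASVs with at least 1 count per mouse (points) in the 5 groups, in the table rarefied to equal depth, with the group mean and SD (n = 6) beside the points. Hydroxytyrosol mice 2 and 4 (102 and 116) lie far above the other 4 mice of their group, and their spread gives the widest SD (50.5).

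Most sequences of the family belonged to single mice. Of the 731 ASVs, 590 (80.7%) had counts in 1 mouse, compared with 71.1% of all 12980 ASVs, and 9 had counts in 10 or more mice. The 10 most counted held 79.0% of the family's counts. The most widespread was a Staphylococcus sequence, ASV_85982, in 25 mice, followed by ASV_73513 in 22 and ASV_19934 in 16 mice.

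Sporosarcina and Kurthia occurred together in a minority of the mice. With at least 1 count as the limit, 7 mice had both, 9 had Sporosarcina alone, 10 had Kurthia alone and 4 had neither. With at least 10 counts, 3 mice had both, 9 had Sporosarcina alone, 12 had Kurthia alone and 6 had neither. Across the 30 mice, Spearman's rho between their shares was -0.49, and within groups it was -0.02. Values within groups, here and below, were taken on log10 shares with 0.5 counts added and the group medians subtracted. Mice with 0 counts are then ordered by their total counts. With many such mice in both genera, the value within groups cannot show whether their shares had a common order. For Kurthia and unclassified Planococcaceae rho was 0.61 and within groups 0.34. These values share the totals of each mouse and are given as descriptions.

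Among the 73 other families with counts in at least 10 mice, the shares of Streptococcaceae (rho 0.56), unidentified Clostridiales (0.52) and unclassified Bacilli (0.48) were most like that of Planococcaceae over the 30 mice. Within groups these values were 0.25, 0.12 and 0.53. Pseudomonadaceae (-0.52) and Moraxellaceae (-0.51), the family of Acinetobacter, were the least like it. Of the related families of the order Bacillales, rho was 0.41 for Bacillaceae, 0.06 for unclassified Bacillales and -0.04 for Staphylococcaceae. In model against control mice, Bacillaceae had a log2 fold change of 3.78 (edgeR adjusted p = 0.0614) and Staphylococcaceae of 1.75 (adjusted p = 0.389), so that 0 of the 3 related families tested passed, beside 17.2% of all families. Paenibacillaceae, Exiguobacteraceae and unidentified Bacillales had counts in at most 2 mice of any group.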

How the data were processed

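Amplicons of the 16S rRNA gene from feces of 30 mice were sequenced. By the methods, reads were merged (FLASH 1.2.11), their quality was controlled (QIIME 1.7.0) and chimeras were removed. Similar sequences were then grouped into operational taxonomic units. The deposited tables instead hold ASVs with assigned taxa, and the deposited read statistics list a denoising step. The methods may therefore not describe how these tables were made. Cutadapt is named in the submitters' processing notes. The deposited tables hold raw counts per ASV, without normalization, in an unfiltered, a filtered (singletons removed) and a rarefied form (39768 counts per mouse). They hold 1303, 731 and 647 Planococcaceae ASVs with counts, and the filtered table also lists 3 family rows without any. The reference taxonomy and its version are not given in the sources used here. The labels call the molecule RNA, whereas the protocol extracted DNA. The paper's pioglitazone group has no sample among the 30 mice, and the ASV letters were not used.

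Groups came from the group label of each sample and replicate numbers from the sample titles, and the numbers in the table columns differ from those in the titles for 3 groups (model, salidroside, hydroxytyrosol). None of the 75 within-group pairs of mice had identical counts (0 pairs). Shares are percent of a mouse's counts in the filtered table. Counts summed per family, per genus and per ASV were tested with edgeR 4.0.16 (TMM, quasi-likelihood F-test, limma 3.58.1) in the 12 mice of each of 7 comparisons, over all taxa with at least 10 counts in at least 4 mice, with Benjamini-Hochberg adjustment over all of them. Shares and ASV numbers were tested by two-sided exact permutation tests, for which the smallest p with 6 mice against 6 is 0.00216. The threshold was 0.05. A fold against a group at 0 used 3 counts per mouse as the limit. Alternatives were DESeq2 1.42.0 with poscounts size factors, limma on centred log-ratios (0.5 added), library totals alone, other filters and tables, all 30 mice in a single model, a replicate block, leaving out each mouse, and, chosen after seeing the data, leaving out the Staphylococcus sequences, or model mouse 6 from the fits without a filter and with all 30 mice. The scripts were tested on simulated data.

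The taxa named are every genus of the family, its 10 most counted ASVs and the leading ASV of each bloom, the other Bacillales families with some families to compare with, and the 3 families most like it in share. ASVs outside this rule were named because they were called, were the most widespread, or were chosen after their values were seen. The family, its members and these lists were chosen with earlier results of these data known.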

Additional observations from a re-analysis of the deposited data

Results flagged for a closer look

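A mouse far from the rest of its group was found in 27 of 49 tests (the gap to the nearest mouse, divided by the range of the group, above Dixon's critical value for 6 mice). Chance alone gives such a mouse in about 1 of 20 groups, and shares that lie close to 0 in most mice give it more often, so each value is given as a description.

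For the share of the whole family, the mice were model mouse 6 (42.0%, next 7.31%), salidroside mouse 4 (28.1%, next 1.30%) and tyrosol mouse 5 (3.07%, next 1.19%). For the number of ASVs it was salidroside mouse 4 (71, next 24). For Sporosarcina the far mice were model mouse 6 (41.9%, next 0.0348%), salidroside mouse 4 (28.0%, next 0.381%) and hydroxytyrosol mouse 4 (43.1%, next 2.19%), which are the 3 blooms of this genus. For Kurthia they were salidroside mouse 6 (0.597%, next 0.0643%) and hydroxytyrosol mouse 2 (10.3%, next 0.00503%).

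For unclassified Planococcaceae, model mouse 1 (0.719%, next 0.111%) and hydroxytyrosol mouse 2 (7.78%, next 0.924%) lay apart. For unidentified Planococcaceae these were control mouse 2 (2.32%, next 0.862%), model mouse 1 (0.274%, next 0.0994%), salidroside mouse 5 (0.0722%, next 0.00804%) and hydroxytyrosol mouse 2 (0.0640%, next 0.00837%).

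Lysinibacillus, Solibacillus and Bacillus lay apart in partly the same mice, and only control mouse 5 was common to all of them. Lysinibacillus did so in control mouse 5 (3.85%), model mouse 1 (4.48%), salidroside mouse 5 (0.981%) and tyrosol mouse 5 (1.24%). Solibacillus did so in control mouse 5 (1.42%), tyrosol mouse 5 (0.927%) and hydroxytyrosol mouse 2 (1.81%). Bacillus did so in control mouse 5 (0.124%), model mouse 1 (0.861%), salidroside mouse 5 (0.109%) and hydroxytyrosol mouse 4 (0.479%). For the Staphylococcus sequences, control mouse 5 had 0.270%, with the next mouse at 0.0656%.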

How the results depend on the processing

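Of the results, the call of unclassified Planococcaceae as lower in model mice was kept in all 12 fits that left out a mouse and on library totals, with DESeq2, with centred log-ratios, with 50 counts as the minimum, with all 30 mice in a single model and in the unfiltered table. It was lost without a filter and with the replicate block. The sign of the family's log2 fold change in model over control mice (0.62) turned to -0.83 on library totals, -0.35 with DESeq2, -2.52 with centred log-ratios, -0.69 without a filter and -1.0 with 50 counts as the minimum. In hydroxytyrosol over model mice (-0.33) it turned to 0.54, 0.53, 0.95, 1.07 and 0.28 in the same order, to 0.079 with all 30 mice in a single model and to 1.38 in the unfiltered table. In salidroside over model mice it turned to 0.18 with centred log-ratios, as Sporosarcina did in tyrosol over model mice (1.36). DESeq2 alone passed the family in hydroxytyrosol over tyrosol (3.23). None of the turned values had passed the threshold, and the cause was not tested.

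The numbers of calls moved with the filter and the tool. In model against control mice, 3 of 5 genera were called with DESeq2 (42.7% of all genera), 2 of 7 with centred log-ratios (28.9%) and 2 of 8 with all 30 mice in a single model (27.1%). DESeq2 called 1 of 6 genera in hydroxytyrosol against tyrosol (13.3% of all genera). Without a filter, 1 genus each was called in tyrosol against model (3.51% of all genera), salidroside against tyrosol (1.85%) and salidroside against hydroxytyrosol (2.43%), and in model against control the 1 genus called was then Sporosarcina in place of the unclassified sequences. With at least 10 counts in only 2 mice, 21 of 39 ASVs of the family were called in model against control (47.2% of all ASVs), 3 of 24 in tyrosol against model (21.4%), 7 of 25 in hydroxytyrosol against model (54.4%), 8 of 20 in hydroxytyrosol against tyrosol (45.4%) and 4 of 20 in salidroside against hydroxytyrosol (40.3%). By mean ranks, the share was 1.0 rank higher than in model mice in both salidroside and tyrosol mice, against lower mean shares. The ASV number of tyrosol over model mice turned to 1.83 without rarefying and 3.83 in the unfiltered table, and that of salidroside over tyrosol to 2.17 with at least 2 counts and 1.33 without the Staphylococcus sequences. Pearson's r with unclassified Bacilli was 0.60, and within groups rho was 0.25 for Streptococcaceae, 0.12 for unidentified Clostridiales, -0.022 for Kurthia with Sporosarcina and 0.34 for Kurthia with the unclassified sequences.

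Leaving out each mouse in turn, the log2 fold change of the family ranged from -2.62 to 1.05 in model over control, -3.46 to 1.11 in salidroside over model, -1.34 to 2.77 in hydroxytyrosol over model and -0.20 to 2.02 in salidroside over tyrosol. That of Sporosarcina ranged from -7.81 to 2.60 in tyrosol over model and from -6.25 to 3.33 in salidroside over hydroxytyrosol. The difference in share ranged from -13.3 to -3.42 percentage points in model over control, -7.78 to 3.47 in salidroside over model, -2.59 to 10.5 in hydroxytyrosol over model and -0.41 to 5.10 in salidroside over tyrosol. The difference in ASV number ranged from -30.5 to -11.5 in model over control, -12.3 to 3.30 in salidroside over model, -10.6 to 2.30 in salidroside over tyrosol and -6.0 to 4.80 in tyrosol over model. The genera called numbered 1 to 3 in model against control (3 without control mouse 6, with 35.8% of all genera) and 0 to 1 in hydroxytyrosol against model (1 without hydroxytyrosol mouse 2, with 11.6%).

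The replicate numbers, taken from the sample titles, are not known to pair the mice. Deviations of same-numbered mice correlated between -0.43 and 0.46, a range that cannot decide whether they do. With a replicate block, 0 of 7 genera were called in model against control (11.3% of all genera), and the family's log2 fold change turned to -2.09 there, 0.37 in salidroside over model and 0.56 in hydroxytyrosol over model. That of Sporosarcina turned to 2.46 in tyrosol over model, -1.73 in salidroside over tyrosol and -1.20 in hydroxytyrosol over tyrosol. With 6 mice per group and shares that single mice dominate, only large differences could pass, and a p above the threshold does not show that groups were alike.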

Other observations

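One pair of sequences of the family kept a near constant ratio of counts across mice. The pairs given here were picked after their values were seen. ASV_58490, labelled Kurthia gibsonii, and ASV_450, labelled only as unclassified Planococcaceae, had 1163 and 1204 counts in control mouse 1 and 364 and 348 in control mouse 2. In control mice 4 and 5 they had 70 and 80 and then 62 and 67 counts, and in hydroxytyrosol mouse 2 they had 717 and 815. In these 5 mice, the ones with at least 50 counts of both, the first was 0.875 to 1.05 times the second, while the counts of the first ranged from 62 to 1163.

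The ratio varied more for ASV_34486, which had 4.79% to 9.93% of the counts of ASV_45355 in control mice 1, 2, 4 and 5 and 6.94% in hydroxytyrosol mouse 2. It had no counts in the mice where ASV_45355 had 171 or fewer. By contrast, ASV_15844 was between 0.0323 and 89.2 times ASV_8872 in the 4 mice with at least 50 counts of both Sporosarcina sequences. Whether any pair belongs to 1 genome was not tested.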
